A study of Homo sapiens with 12 samples.

Results

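Keratins are the intermediate filament proteins of epithelial cells, and each filament is built from pairs of a type I and a type II chain. Simple epithelia make the type II keratins KRT7 and KRT8 and the type I keratins KRT18, KRT19 and KRT20, though not all of them in every tissue. The type II keratins KRT6A and KRT6B and the type I keratins KRT16 and KRT17 belong to stratified epithelia and their appendages, where wounding and stress induce them. KRT80 is a type II keratin found at desmosomes, the cell junctions to which keratin filaments attach, and it is given on its own here. The members were all probes whose platform gene symbol is 1 of these 10 symbols. The array carries 12 such probes of 48801, and they name 7 of the 10 symbols. There were 8 probes for the simple epithelial keratins, 2 for the stress and basal keratins and 2 for KRT80. KRT6A, KRT6B and KRT17 have no probe under these symbols and were skipped, so KRT16 alone stood for the stress and basal class.

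RNA came from SW48, an established human colorectal cancer line with microsatellite instability, and was hybridised to 12 Illumina bead arrays, 3 per group. The control cells were untreated. Another group was given 5'-Aza-cytidine (azacytidine), an inhibitor of DNA methyltransferases, for 5 days at 1 µM. A further group was given Trichostatin A (TSA), which inhibits histone deacetylases, for 2 days at 0.5 µM. The combined group received azacytidine for 5 days and then TSA for 2 days. SW48 is a single line, the time the control cells spent in culture is not given in the labels, and time in culture cannot be told apart from treatment. The labels do not say whether replicates were separate cultures, so a p-value here reflects only how far these arrays scatter. Signal per amount of RNA cannot tell fewer keratin-expressing cells from less keratin RNA per cell.

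The array number limits the precision, and each array detected 11742 to 13647 probes. The arrays lay on 2 chips, each with 6 arrays from all 4 groups, but control and TSA had 2 arrays on chip 1 and 1 on chip 2, and the groups given azacytidine had the reverse. Of 12 colorectal epithelial markers, 6 were detected on all arrays of every group (EPCAM, CDH1, CDX2, CLDN3, CLDN7 and CDH17), while VIL1, CLDN4, GPA33 and LGALS4 were detected on no array of any group. The summed normalised signal of these 12 markers ranged from 16828 to 18869 in control, 13487 to 15552 after azacytidine, 15659 to 19161 after TSA and 15755 to 18318 after the combined treatment. Of 6 keratinocyte markers with a probe, KRT5, KRT14, KRT1 and DSG3 were not detected in any group, and KRT10 and LAMB3 were detected on all arrays. After azacytidine KRT10 changed by 0.74 and LAMB3 by -2.20 on the log2 scale. Of 8 fibroblast markers 0 were detected in control and 1, THY1, after azacytidine. COL1A1 and PDGFRB were detected on some combined arrays, while COL1A2, COL3A1, DCN, LUM and FAP were detected in no group. The summed signal of the 8 ranged from 128 to 139 in control, 226 to 252 after azacytidine and 426 to 505 after the combined treatment. Of 5 endothelial markers 0 were detected in control. VWF was detected on all azacytidine arrays, PECAM1 on some of them, and CDH5, KDR and TEK in no group. Endothelial sums ranged from 118 to 123 in control, 287 to 337 after azacytidine and 953 to 1111 after the combined treatment. Of 7 leukocyte markers with a probe, PTPRC, CD3D, CD3E, ITGAM and LST1 were detected in no group and CD68 on all arrays. CD14 was detected on 0 control arrays and on all 3 azacytidine and all 3 combined arrays, at least 1.72-fold and 2.41-fold higher than in control. The part of these marker changes in the keratin results was not tested.

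Promoter windows of 2 members show what sequence they offer for cytosine methylation, whose enzymes azacytidine blocks. RefSeq's promoter table for GRCh38.p14 takes 250 bases before and 50 after a start site. It held windows for 2 of the 10 symbols, KRT8 and KRT20, and none for KRT16, KRT19 or KRT80. The KRT8 window lies at chr12:52926420-52926719 on the minus strand. It lies wholly within the annotated span of the gene, so its start site is not the outer start of that span. The KRT20 window lies at chr17:40885193-40885492 on the minus strand. Capitals mark CG dinucleotides.
KRT8: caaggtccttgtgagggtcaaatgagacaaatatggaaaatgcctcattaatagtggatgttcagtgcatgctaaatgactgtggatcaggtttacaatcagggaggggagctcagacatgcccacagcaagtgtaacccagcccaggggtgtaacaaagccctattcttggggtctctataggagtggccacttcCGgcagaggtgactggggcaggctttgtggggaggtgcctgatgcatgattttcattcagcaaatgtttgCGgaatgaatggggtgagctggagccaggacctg
KRT20: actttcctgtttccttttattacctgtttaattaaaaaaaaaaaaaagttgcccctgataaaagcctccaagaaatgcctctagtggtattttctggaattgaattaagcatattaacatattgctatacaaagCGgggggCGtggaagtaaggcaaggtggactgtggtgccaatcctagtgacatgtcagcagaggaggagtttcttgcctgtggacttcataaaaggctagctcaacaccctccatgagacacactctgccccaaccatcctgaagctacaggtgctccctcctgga
Each window of 300 bases holds 2 CG dinucleotides, and 81.8% of the 35116 RefSeq promoter windows hold more, with a median of 14. Neither window holds TGANTCA, the AP-1 consensus, which 7.71% of all windows hold, or GGGCGG, an Sp1 core on either strand, which 45% hold. DNA methylation was not measured here.

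The keratins divided first by whether they could be measured. A probe was taken as detected on an array at a detection p-value under 0.01, which ranks its signal among control probes, and it was tested when at least 3 of the 12 arrays detected it. By this filter 6 of the 12 member probes were tested, for KRT8, KRT18, KRT19, KRT80 and KRT16 (2 probes). KRT18, the partner of KRT8 in simple epithelia, had a bright probe (ILMN_1694778) and 2 others that no array detected. KRT7, which marks ducts and glands, gave raw intensities from 105 to 174 with detection p-values from 0.0171 to 0.70. KRT20, which marks differentiated intestinal epithelium, had 2 probes with raw intensities from 97.2 to 129 and from 94.7 to 130. None of the 12 arrays detected KRT7, either KRT20 probe or the second KRT80 probe. The 6 dim probes give no fold change.

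**Figure D1:**
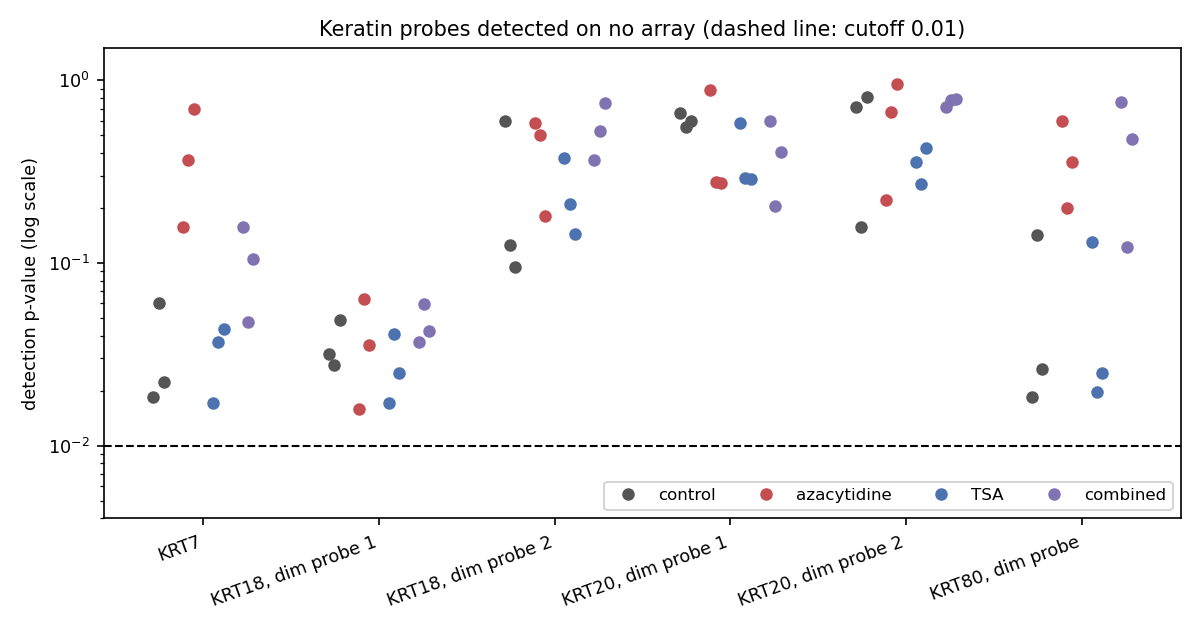
Detection p-values (log axis) of the 6 member probes that no array detected, with 1 point per array and 3 arrays per group. All points lie above the dashed line at 0.01, and the KRT7 points of the control arrays lie below those of the azacytidine arrays.

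Of the simple keratins, KRT8, KRT19 and 1 KRT18 probe were bright in untreated cells. Values below are log2 normalised intensities, background-corrected and quantile-normalised, for replicates 1, 2 and 3. KRT8 (ILMN_1753584), the type II partner of KRT18, stood at 12.53, 12.07 and 11.88 in control and at 11.48, 11.69 and 11.47 after azacytidine. After TSA it stood at 11.91, 12.07 and 12.02, and after the combined treatment at 11.75, 11.87 and 11.70. Control replicate 1 was the highest KRT8 array, and all azacytidine and combined arrays lay below all control arrays, as did 33.7% of all tested probes after azacytidine and 38.6% after the combined treatment. KRT18 gave 14.18, 14.10 and 14.24 in control, 13.70, 13.71 and 13.78 after azacytidine and 14.07, 14.20 and 14.35 after TSA. Combined arrays gave 13.63, 13.76 and 13.80. TSA arrays overlapped control for KRT18, while the azacytidine and combined arrays lay below both.

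KRT19 (ILMN_1730777), a type I keratin of simple epithelia with an unusually short tail, separated the groups more widely. Its control arrays read 12.58, 12.44 and 12.59 and its TSA arrays 12.23, 12.48 and 12.69. Azacytidine arrays read 10.45, 11.00 and 10.78, and combined arrays read 11.43, 11.90 and 11.85. Control and TSA overlapped at the top, the azacytidine arrays were lowest and the combined arrays lay between, without overlap. Among all tested probes, 33.7% lay without overlap below control after azacytidine and 38.6% after the combined treatment. The combined arrays lay without overlap above the azacytidine arrays for 20.5%. KRT80 (ILMN_1705814) showed the same order as KRT19. Its arrays read 10.43, 10.27 and 10.29 in control and 10.36, 10.33 and 10.48 after TSA. They read 9.71, 9.80 and 9.65 after the combined treatment and 8.54, 8.73 and 8.85 after azacytidine.

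KRT16, a type I keratin that pairs with KRT6 in wounded and stressed epidermis, had 2 probes that moved alike. The first (ILMN_1736760) read 10.32, 10.25 and 10.10 in control and 10.14, 10.19 and 10.27 after TSA. It read 5.06, 5.87 and 5.70 after azacytidine and 5.15, 5.16 and 5.37 after the combined treatment. In raw intensity the control arrays gave 1224, 1311 and 1582 and the azacytidine arrays 120, 172 and 146. The second probe (ILMN_2228162) read 9.17, 9.27 and 9.08 in control, 9.16, 9.0 and 8.88 after TSA, 5.40, 5.99 and 5.83 after azacytidine and 5.40, 5.56 and 5.80 after the combined treatment. Neither KRT16 probe was detected on any azacytidine or combined array, and both were detected on all control and TSA arrays. KRT14, a neighbouring gene of similar sequence, was detected on 0 of 12 arrays. Probe sequences were not used here, so binding of the KRT16 probes to near-identical keratin transcripts was not tested.

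**Figure D2:**
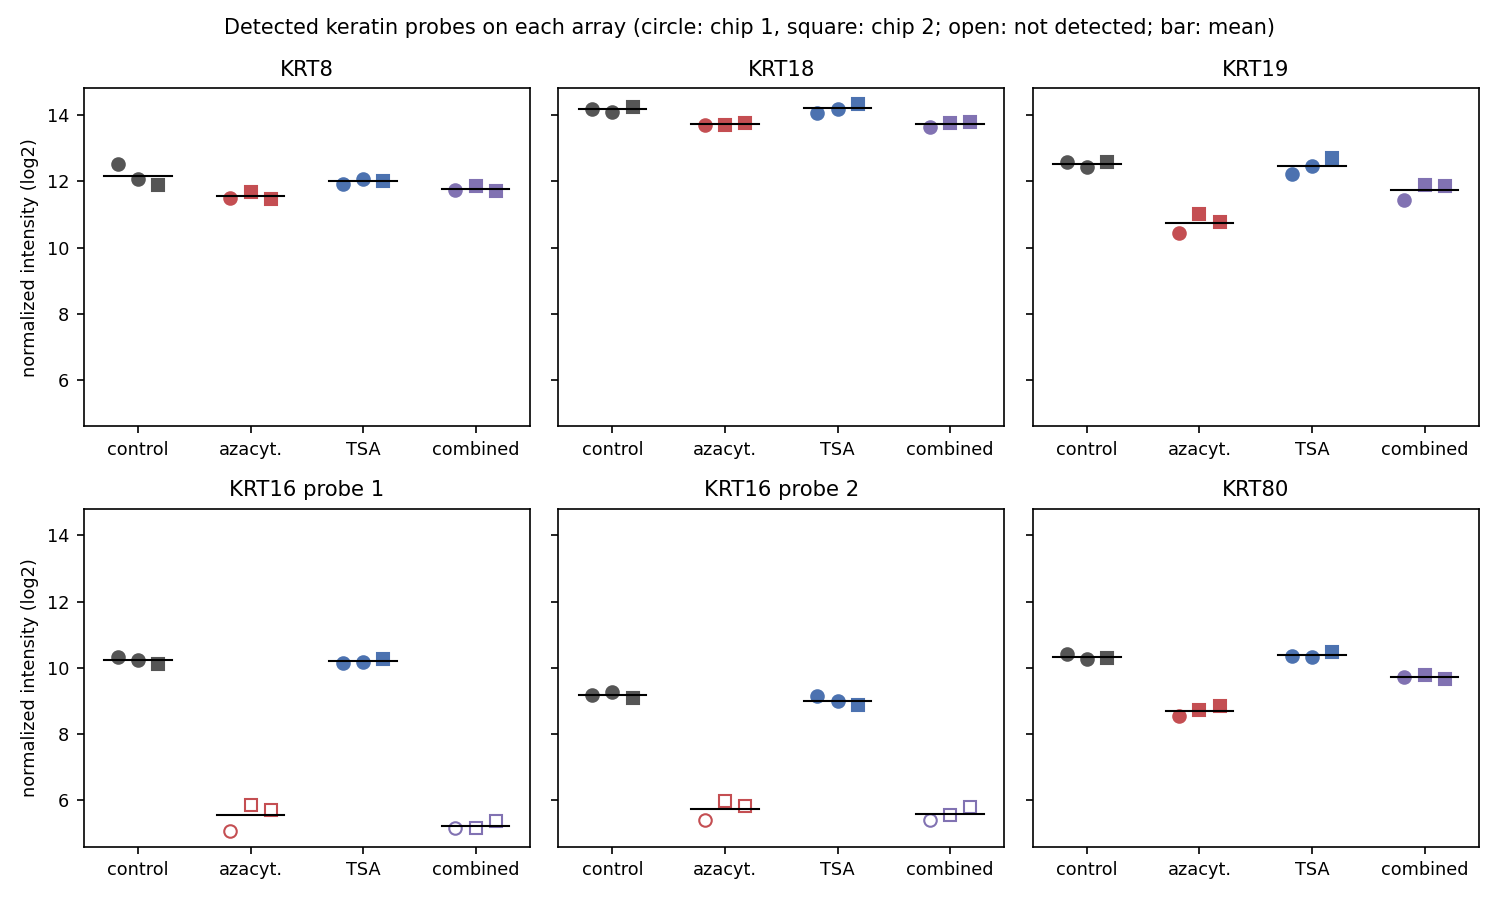
Log2 normalised intensity of the 6 tested member probes on each of the 12 arrays, by group, with the group mean as a bar, circles for chip 1, squares for chip 2 and open symbols where not detected. The KRT16 probes lie between 8.88 and 10.32 in control and TSA and at 5.99 or lower after azacytidine and the combined treatment, while KRT19 and KRT80 lie between control and azacytidine after the combined treatment.

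Azacytidine alone lowered all 6 tested member probes, for KRT8, KRT18, KRT19, KRT16 and KRT80, where 32.1% of the 13915 tested probes were called lower and 62.2% were called in either direction at an adjusted p under 0.05. Both KRT16 probes passed the filter only through control and TSA arrays, so their direction here was set in advance. They also belong to the same gene. The median change of the 6 probes was -1.71 on the log2 scale and that of all probes -0.02, and setting KRT16 at its bounds below leaves the members' median as it is. Set against the lowest detectable signal, KRT16 was at least 14.6-fold lower at its first probe (limma adjusted p = 6.81e-11) and at least 7.01-fold lower at its second (limma adjusted p = 5.42e-10). These bounds use the measured control mean and, on each azacytidine array, the lowest signal among detected probes or the probe's own signal if higher, since KRT16 was below detection after azacytidine. They hold on the background-corrected scale. Without background correction the log2 differences of the KRT16 probes were smaller, -3.16 and -2.13.

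KRT19 was 3.46-fold lower after azacytidine, a log2 change of -1.79 ± 0.16 (SE) with a 95% interval from -2.14 to -1.44 (limma adjusted p = 8.87e-07). KRT80 was 3.08-fold lower, a log2 change of -1.62 ± 0.09 (limma adjusted p = 1.05e-08). The KRT8 and KRT18 pair changed least, with KRT8 1.53-fold lower (log2 change -0.61 ± 0.14, limma adjusted p = 0.00182). KRT18 was 1.36-fold lower (log2 change -0.44 ± 0.09, limma adjusted p = 0.000679). On the background-corrected scale, the lower bounds on the KRT16 decrease, 3.86 and 2.81 in log2, lay beyond the interval of KRT19. For the second KRT16 probe this order depended on the processing. That probe changed by -2.13 without background correction and by -1.61 in the authors' processed values. Both lie inside the KRT19 interval above, but that interval comes from the background-corrected fit. Over the alternatives and single chips KRT19 changed by -2.06 to -1.64. The second KRT16 probe therefore fell further than KRT19 without background correction, and less than KRT19 in the authors' values. The KRT19 intervals under these processings are not given here. The first KRT16 probe stayed beyond both the interval and the range of KRT19, at -3.16 and -2.52. No test of the simple against the stress and basal class was made, because KRT16 alone stood for the latter.

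Within each chip the 6 member probes were also lower after azacytidine. KRT19 changed by -2.06 on chip 1 and by -1.70 on chip 2. KRT8 varied most relative to its size, with -0.82 on chip 1 and -0.30 on chip 2. The partners KRT8 and KRT18 kept a similar distance within an array, with KRT8 minus KRT18 between -2.35 and -1.65 in control and between -2.30 and -2.02 after azacytidine. KRT19 minus KRT18 ran from -1.66 to -1.61 in control and from -3.25 to -2.71 after azacytidine, without overlap. These differences between probes depend on probe brightness and are compared only between groups.

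**Figure D3:**
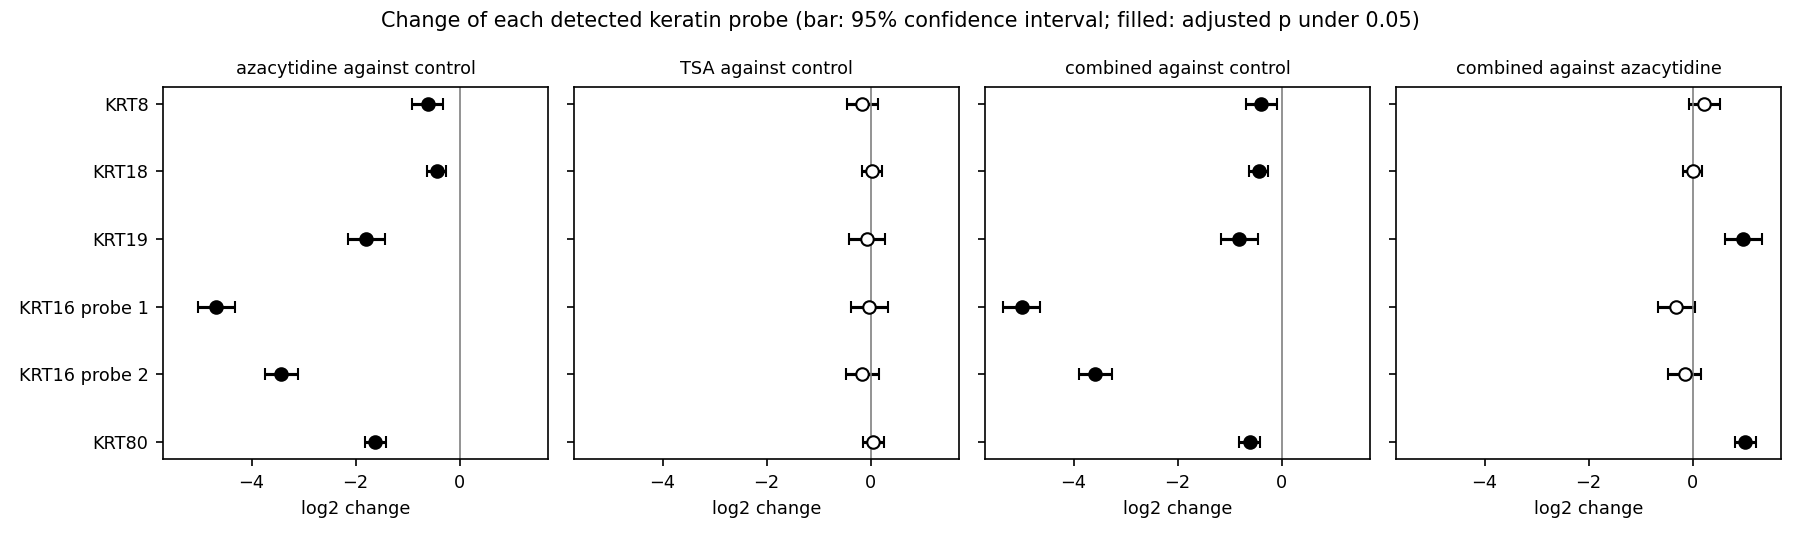
Log2 change with its 95% interval for the 6 tested member probes in 4 comparisons, with filled points at an adjusted p under 0.05. The intervals of the TSA comparison span 0, and the fitted KRT16 changes after azacytidine and after the combined treatment lie beyond all others. KRT16 was below detection in both of these groups, so its points there are fitted values and not measured folds.

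With TSA alone 0 of the 6 tested keratin probes passed limma's test. At an adjusted p under 0.05, 0.101% of all probes were called, and 0 of the 6 member probes had even an unadjusted p under 0.05. Log2 changes ran from -0.16 to 0.06, with adjusted p-values from 0.815 to 0.984 by limma. The 95% intervals were -0.46 to 0.14 for KRT8, -0.16 to 0.22 for KRT18 and -0.42 to 0.28 for KRT19. For KRT80 the interval was -0.14 to 0.26, and for the KRT16 probes -0.38 to 0.33 and -0.48 to 0.16. The intervals leave room for small changes in either direction.

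After azacytidine followed by TSA all 6 probes were again lower than in control, with 37.7% of all probes called lower and 68.6% in either direction. This comparison shares its control arrays with the azacytidine comparison. Here too the KRT16 probes passed the filter only through control and TSA arrays, which set their direction in advance. The median of the 6 changes was -0.71 and that of all probes -0.07. KRT16 was at least 14.6-fold lower at the first probe (limma adjusted p = 2.66e-11) and at least 7.04-fold lower at the second (limma adjusted p = 2.6e-10). KRT19 was 1.75-fold lower, a log2 change of -0.81 ± 0.16 (limma adjusted p = 0.00065). KRT80 changed by -0.61 ± 0.09 (limma adjusted p = 6.96e-05) and KRT18 by -0.44 ± 0.09 (limma adjusted p = 0.000575).

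KRT8 was the weakest of these calls, at -0.39 ± 0.14 (limma adjusted p = 0.0242), with -0.55 on chip 1 and -0.10 on chip 2. Without control replicate 1 its change was -0.20 (limma adjusted p = 0.101). It also missed the threshold without combined replicate 1 (limma adjusted p = 0.0575) and without combined replicate 3 (limma adjusted p = 0.0709).

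After azacytidine and then TSA, 2 of the 6 probes were higher than after azacytidine alone. In this comparison 14.8% of all probes were called higher and 33.8% in either direction. The labels do not say whether azacytidine cells were kept 2 more days without TSA, so time cannot be told apart from TSA. KRT19 was higher by 0.98 ± 0.16 on the log2 scale (limma adjusted p = 0.000562), and by 0.98 on each chip. KRT80 was higher by 1.01 ± 0.09 (limma adjusted p = 4.74e-06), with 1.17 on chip 1 and 0.94 on chip 2. KRT8 gave 0.22 ± 0.14 (limma adjusted p = 0.228), although its 3 combined arrays lay above its 3 azacytidine arrays, as for 20.5% of all probes. KRT18 gave -0.00, with an interval from -0.19 to 0.19 (limma adjusted p = 0.998). KRT16 was below detection in both groups, so no fold is given. Its first probe was called lower without azacytidine replicate 1 (-0.55, limma adjusted p = 0.00224) but not in the full data (limma adjusted p = 0.158).

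The combined treatment against TSA alone lowered 5 of the 6 probes, with 38.2% of all probes called lower and 69.1% in either direction. KRT18 changed by -0.48 (limma adjusted p = 0.00033), KRT19 by -0.74 (limma adjusted p = 0.00123) and KRT80 by -0.67 (limma adjusted p = 3.27e-05). KRT16 was at least 14.4-fold lower at the first probe, and the bound at the second was 6.30-fold. Both of its probes passed the filter only through control and TSA arrays, which set their direction in advance. KRT8 gave -0.23 ± 0.14 (limma adjusted p = 0.159), with its 3 combined arrays below its 3 TSA arrays, as for 40.2% of all probes. Without control replicate 1 the KRT8 call passed (limma adjusted p = 0.0419).

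The interaction asked whether the azacytidine change differed between cells with and without TSA. It was positive for KRT19, at 1.05 ± 0.23 on the log2 scale (limma adjusted p = 0.00647), and for KRT80, at 0.96 ± 0.13 (limma adjusted p = 0.000294). These were 2 of the 6 probes, where 10.4% of all probes were called higher and 21.1% in either direction. On the chips the interaction was 1.13 and 0.88 for KRT19 and 1.18 and 0.75 for KRT80. The KRT16 probes gave -0.29 (limma adjusted p = 0.408) and 0.01 (limma adjusted p = 0.985), with azacytidine values below detection, KRT18 gave -0.03 (limma adjusted p = 0.878) and KRT8 0.38 ± 0.19 (limma adjusted p = 0.181). Without azacytidine replicate 1 the first KRT16 probe was called lower (-0.53, limma adjusted p = 0.0225), with both azacytidine groups below detection. Scaling each array by its median removed both calls, as given with the other alternatives.

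Other keratins moved in both directions after azacytidine. Of 45 listed, 41 had a probe, 5 were tested, 2 were called higher and 3 lower, with a median of -0.45, where 30.2% of all probes were called higher and 32.1% lower. KRT12, the corneal keratin, was called higher and was detected on 2 azacytidine arrays and no control array. KRT10, the partner of KRT1 in suprabasal epidermis, rose by 0.74. KRT15, a basal keratin, was at least 1.59-fold lower, and KRT23 changed by -0.79. After the combined treatment 2 of the 5 were higher and 2 lower, where 30.8% of all probes were called higher and 37.7% lower. KRT12 was at least 2.13-fold higher, KRT10 changed by 1.33, KRT23 was at least 1.56-fold lower and KRT15 changed by -0.77.

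Of 9 tested genes of other intermediate filaments, 6 were called higher after azacytidine and 0 lower, against 30.2% of all probes called higher. The list median was 0.84 as fitted and 0.41 with genes below detection at their bound. BFSP1, among the 6, was detected on 1 azacytidine array only, and LMNA, LMNB2 and NEFM did not pass. VIM, the mesenchymal filament vimentin, was at least 15.3-fold higher (limma adjusted p = 7.3e-14) and NEFH, the heavy neurofilament chain, at least 6.82-fold higher. PRPH, peripherin, rose by 1.42, and NES, nestin, was at least 1.83-fold higher. VIM, NEFH, NES and BFSP1 were detected on no control or TSA array. They passed the filter only through groups given azacytidine, which set their direction in advance. The count and median above therefore do not test a direction. After the combined treatment 7 were called higher and 1, LMNB2, lower, where 30.8% of all probes were called higher and 37.7% lower. The 7 include NEFM, detected on combined arrays only, and the same limit holds.

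Of 12 tested desmosomal and linker genes, to which keratins attach, 8 were called lower after azacytidine and 0 higher, where 32.1% of all probes were lower. The list median was -0.57 as fitted and -0.42 with genes below detection at their bound. The desmosomal cadherin DSC2 changed by -1.70, plakoglobin (JUP) by -1.08 and desmoplakin (DSP) by -1.02. Plakophilin PKP2, detected on 1 control array and 0 azacytidine arrays, was at least 1.20-fold lower. After the combined treatment 8 were lower and 2, PPL and DST, higher, where 37.7% of all probes were called lower and 30.8% higher. Compared with azacytidine alone, 4 were higher after the combined treatment and 1 lower, where 14.8% of all probes were called higher and 19% lower. PPL was higher by 0.78 (limma adjusted p = 6.28e-05) and DSC2 by 0.63 (limma adjusted p = 0.00126). PKP4 changed by -0.34 (limma adjusted p = 0.00623).

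Of 20 tested transcription factors linked to keratin genes and the epithelial state, 16 were called lower after azacytidine and 2 higher, where 32.1% of all probes were lower and 30.2% higher. The 16 include EHF, which was below detection in both groups, leaving 15. The list median was -0.84 as fitted and -0.59 with EHF at 0 and GRHL2 at its bound. The AP-1 subunits JUNB and FOSL1 changed by -2.56 and -1.71, the zinc finger factor OVOL1 by -2.38, and CDX2, an intestinal homeobox factor, rose by 1.49. After the combined treatment 13 were lower, or 12 without EHF, and 3 higher, where 37.7% of all probes were called lower and 30.8% higher. Against azacytidine alone 9 were higher and 3 lower, where 14.8% of all probes were called higher and 19% lower. Of 26 stratified epithelium differentiation genes only CNFN, KLK5 and KLK7 could be tested, with changes of -1.31, 0.39 and -1.05 after azacytidine. With TSA alone 0 of the tested genes of the 5 lists passed the threshold, where 0.101% of all probes were called.

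**Figure D4:**
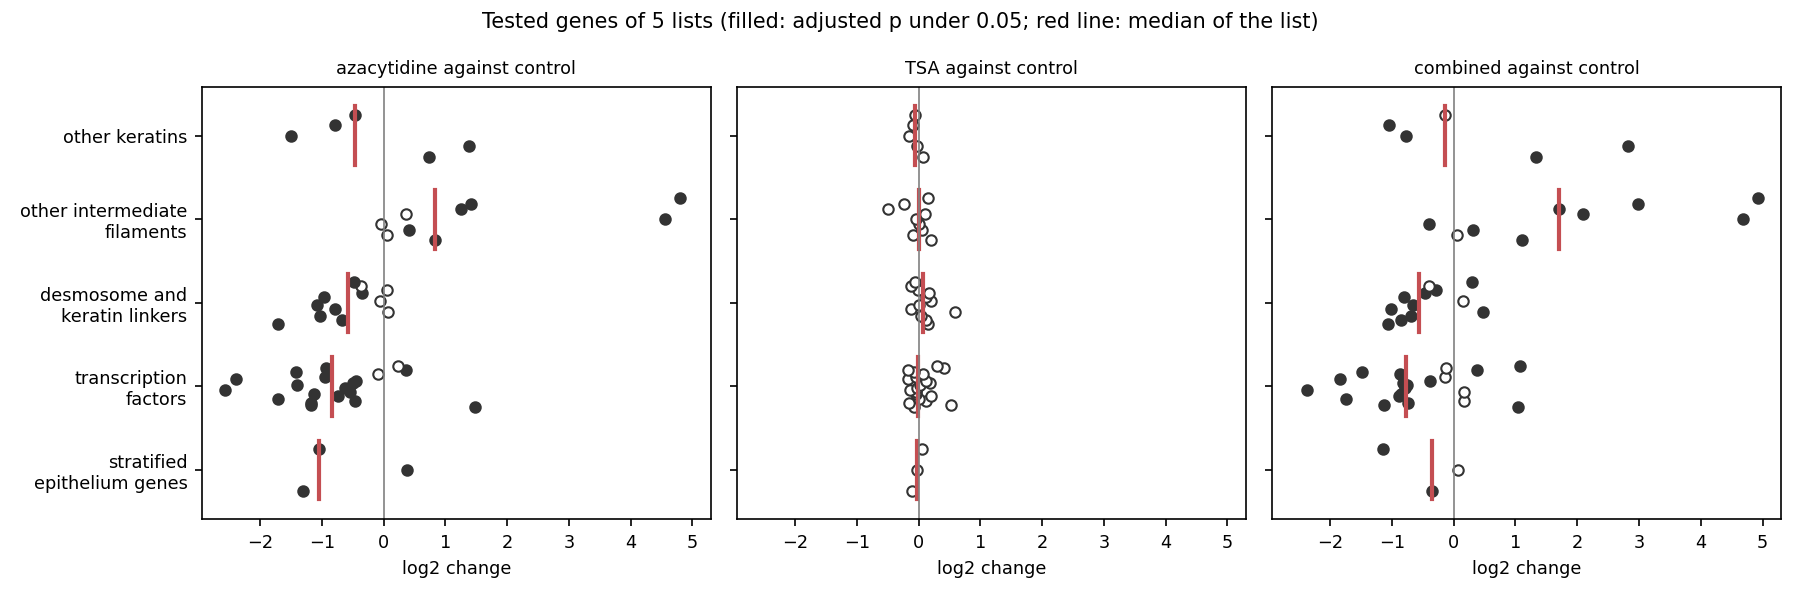
Log2 change of each tested gene of 5 lists after azacytidine, TSA and the combined treatment against control, on a shared axis, with the list median as a red line. After azacytidine the fitted medians are -0.45 for other keratins, 0.84 for other intermediate filaments, -0.57 for desmosomal genes and -0.84 for transcription factors.

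Over the 12 arrays the non-keratin genes most like KRT19 were PIM1 (Pearson r = 0.990), PTPRE (r = 0.990) and MAOB (r = 0.984), of 9473 genes compared. Those most like the first KRT16 probe were FRAT2 (r = 0.997), RPS13 (r = 0.996) and INAVA (r = 0.996). OSBPL10 (r = 0.990), BHLHE40 (r = 0.987) and SH3RF2 (r = 0.987) were most like KRT80. The arrays share their groups and scaling, and these values describe likeness only, with no test.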

How the data were processed

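RNA of 12 SW48 arrays was measured. The authors deposited 1 linear intensity per probe and array with a detection p-value, per the file headers, summarised with GenomeStudio per the submitters' processing notes. The authors also deposited processed log2 values, with array medians of 7.63. The notes also list lumi 2.6.0, and the transform and genome build are not given in the sources used here. Platform annotation named 27577 probes by 1 gene, 13 by several, and 21211 are unnamed here. Of the named probes, symbols of 27540 matched by Entrez ID and 0 changed.

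Intensities were corrected by normexp using detection p-values (limma 3.58.1, R 4.3.3, offset 16), quantile-normalised and put on a log2 scale. The filter kept 13915 of 48801 probes, those at a detection p-value under 0.01 on at least 3 arrays. One limma model with 4 group means gave each contrast two-sided p-values, adjusted by Benjamini-Hochberg over all kept probes at 0.05. A fold against a group below detection is a lower bound. A gene detected only in some groups passes the filter through them, which sets its direction against the other groups in advance. The scripts were tested on simulated data.

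All members were named with every probe. From each list, up to 4 genes with the largest absolute change were named per contrast, and the 3 non-keratin genes with the highest Pearson r for the most changed member of each class. Members and lists were chosen with earlier results of these data known, and are not independent evidence. Alternatives covered background correction, scaling, filters, probe or gene level, chip, replicate number, moderation, array weights and leaving out each array.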

Additional observations from a re-analysis of the deposited data

Results flagged for a closer look

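The azacytidine change of 2 keratins differed between cells given TSA and cells not given it. For KRT19 the difference was 1.05 ± 0.23 (SE) on the log2 scale (limma interaction, adjusted p = 0.00647), with azacytidine alone at -1.79 against control and azacytidine then TSA at -0.74 against TSA. For KRT80 the difference was 0.96 ± 0.13 (limma interaction, adjusted p = 0.000294), with -1.62 without TSA and -0.67 with it. Both differences rest on 3 arrays per group, and neither passed under median scaling (limma interaction, adjusted p = 0.108 and 0.0739). The labels do not say whether azacytidine cells were kept for more days without TSA, so time cannot be told apart from TSA.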

How the results depend on the processing

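Over the tested alternatives 954 keratin probe changes were recomputed: 941 kept direction and side of the threshold, 7 fell short, 6 newly passed and 0 reversed. Called probes ranged from 5 to 8 for azacytidine and for the combined treatment against control, 2 to 3 for combined against azacytidine, 4 to 7 for combined against TSA, 0 to 3 for the interaction, and stayed at 0 for TSA. The lowest and highest counts for the control comparisons came from fits with 1 value per gene or with more dim probes. The interaction count went from 2 to 0 under median scaling by limma, with 2 at an unadjusted p under 0.05: KRT19 was 0.78 (adjusted p = 0.108) and KRT80 0.69 (adjusted p = 0.0739). There the median of all probes moved to -0.29, and relative to it the values were 1.06 and 0.97. Median scaling moved the share of higher calls from 48.5% to 36.2% after azacytidine, 44.9% to 26.5% after the combined treatment, 43.8% to 33.0% for combined against azacytidine and 44.7% to 20.8% for combined against TSA. For the interaction that share went from 49.2% to 33.9%, and to 64.0% with cyclic loess, which gave 56.4% for combined against azacytidine. Median scaling shifted the median of all probes by -0.147 after azacytidine and -0.328 after the combined treatment. Without the detection filter KRT7 and the second KRT80 probe were called lower after azacytidine (log2 differences -0.92 and -0.78, adjusted p = 0.0012 and 0.036), although no array detected them. The KRT8 call for combined against control was lost with no filter (adjusted p = 0.0636) and with only the compared arrays (adjusted p = 0.0606). KRT8 was called for combined against TSA under median scaling (-0.72, adjusted p = 0.0012) and with only the compared arrays (adjusted p = 0.0431). Array weights called the first KRT16 probe lower for combined against azacytidine (-0.41, adjusted p = 0.0317), with both groups below detection. KRT16 log2 differences after azacytidine were smaller without background correction (-3.16 and -2.13), with an offset of 50 (-3.92 and -2.80) and in the authors' values (-2.52 and -1.61), and after the combined treatment they were -3.29 and -2.19 without background correction. A chip block left the counts at 6, 0, 6, 2, 5 and 2. The replicate block left the same counts, 6, 0, 6, 2, 5 and 2. Of 18 same-number pairs 11 had r over 0.1, and 7 of 12 arrays correlated best with their own number. On the same chip the median r was 0.26 for same-number pairs and 0.11 for others. Across chips it was -0.21 and -0.23. Whether the numbers pair the arrays was not settled by these values. The cause of each change was not tested.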

Other observations

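KRT17P5, a keratin 17 pseudogene, was picked after its values were seen. Of its 2 probes, 1 was detected on 2 combined arrays and on no other array, with log2 means of 5.23 in control, 5.82 with azacytidine, 4.93 with TSA and 6.70 with both agents. It missed the filter and was not tested.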
